A study of Mus musculus with 12 samples.

Results

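The proteasome genes were taken as every symbol of the count table that begins with Psma, Psmb, Psmc, Psmd, Psme or Psmf, without Psmb8, which gave 45 of 24062 symbols. They held 14 constitutive core subunits, 2 interferon-inducible and 2 tissue-restricted core subunits, 17 subunits of the 19S regulatory particle, 3 assembly chaperones of that particle, 3 subunits of the 11S activator with 1 near-copy, the PA200 activator, the regulator PI31, and Psmc3ip. The last is named for a subunit it binds, encodes a meiotic recombination factor and is no part of the proteasome. In the cortex of the 4 genotype groups, 0 of the 43 genes with enough counts for a test passed an adjusted p of 0.05 in any of the 5 comparisons made with edgeR's quasi-likelihood test. Among the members with the smallest p values were Psme4, which was 0.712 times as abundant in Tia1+/- as in WT cortex (95% interval 0.546 to 0.927; -0.49 on the log2 scale, and -0.19 without WT replicate 1), and Psmd8, which was 1.25 times as abundant in P301S Tia1+/- as in Tia1+/- cortex (95% interval 1.09 to 1.44).

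The proteasome is the barrel-shaped protease that degrades most ubiquitin-tagged proteins in the cytosol and nucleus. Its 20S core stacks rings of alpha subunits, which gate the entry, and rings of beta subunits, some of which carry the protease sites. The 19S particle caps the core, binds ubiquitin chains, removes them, and unfolds the substrate with a ring of ATPases. 11S and PA200 are alternative caps. Neurons rely on this system to clear misfolded proteins, and tau is among the proteins it can degrade.

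RNA came from the cortex of mice aged 9 months, with 3 mice and 3 libraries in each group. WT mice carried neither change. Tia1+/- mice had 1 functional copy of Tia1, the gene of an RNA-binding stress granule protein, beside a null allele. PS19 mice carried a transgene for human tau with the P301S mutation, driven by the prion protein promoter (Prnp), on a Tia1+/+ background, and P301S Tia1+/- mice carried both changes. PS19 is a single transgenic line, and the tau is expressed from a promoter active in many brain cells. In the deposited records, the genotype entry of the Tia1+/- mice gives what the titles of the double mutants say, and the reverse. The titles were followed, and every comparison with either group rests on them. The mouse gene Prnp had 2120, 2020 and 2160 CPM (read counts scaled to library size by TMM) in PS19, above 1330, 1880 and 1700 in WT, 1920, 1660 and 996 in Tia1+/- and 1500, 1530 and 1400 in P301S Tia1+/- libraries. Mouse Mapt, the tau gene, had 439 to 462 CPM in PS19, 256 to 413 in WT, 344 to 502 in Tia1+/- and 336 to 357 in P301S Tia1+/- libraries. In both genes the P301S Tia1+/- libraries lay within the WT range, so these counts do not mark that group as carriers of the transgene, and how far transgene reads enter either count was not tested.

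Total counts ranged from 11978962 to 19146484 per library, and the proteasome genes took 0.369% to 0.426% of them, with a median of 0.398%. Tia1 itself stood at 82.0 ± 10.3 CPM (SD, n = 3) in WT, 73.5 ± 3.87 in PS19, 68 ± 10.3 in Tia1+/- and 74.7 ± 2.76 in P301S Tia1+/- cortex, so its level did not separate the labelled groups. Xist had 217 to 367 CPM in the 6 Tia1+/- and P301S Tia1+/- libraries and at most 0.783 in the other 6. The Y-linked genes Ddx3y, Uty, Eif2s3y and Kdm5d had 0 to 0.193 CPM in the former 6 and 33.4 to 169 in the other 6. The paper states that the mice were male unless noted. It reads these differences as an effect of lower Tia1, also measured in further males and, for Xist, in females. Here, differences between Tia1 genotypes and differences tied to sex-linked expression cannot be told apart. Genes of the olfactory bulb, a region next to the cortex, were high in some libraries. The summed level of 9 such genes, of which 7 were detected in every library, was 1360 CPM in WT replicate 1, 871 to 982 in the P301S Tia1+/- libraries, 16.9 to 29.3 in PS19 and 16.9 to 212 in the remaining libraries. Tia1+/- replicate 3 stood apart in 8 striatal genes, with a sum of 1910 CPM against 126 to 305 elsewhere. The sum of 7 cortical genes was lowest in WT replicate 1, with 226 CPM, followed by the 3 P301S Tia1+/- libraries with 266 to 302, and was 359 to 510 in the other 8. Neuron, astrocyte, oligodendrocyte and microglia markers were detected in every library, while 4 of the 5 blood markers, all globin genes, had no count in any. Whether those zeros reflect the blood content or the counting was not tested. In bulk tissue, fewer cells of a type and less RNA per cell cannot be told apart.

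Levels of different genes were compared as CPM per kb of exon, averaged over the 12 libraries. The 14 constitutive core subunits lay between 27.8 for Psma1 and 74.2 for Psmb5, the subunit with the chymotrypsin-like site. The 19S subunits were more spread, from 7.04 for the lid subunit Psmd11 to 111 for Psmc5, one of the ATPases that unfold the substrate. Psmc1 followed with 97.5, Psmd2 with 75.6 and Psmc3 with 74.7. The assembly chaperones, which act on the base before it joins the core, had lower levels of 3.45 for Psmd9, 8.93 for Psmd5 and 10.5 for Psmd10. These levels depend on the exon length, which counts every annotated exon of a gene, and the annotation behind the counts is not given. Psmd5 had 64.6 CPM over 7230 bases and Psmd9 had 25 CPM over 7248. Psmb5 had 66.7 CPM over 899 bases, and Psmd10 had 15.4 CPM over 1469. Among the caps, Psme3 had 29.4, Psme4 13.5, Psme1 12.4 and Psme2 12.3 CPM per kb.

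The inducible and tissue-restricted core genes were near the bottom of the range, except Psmb10. Psmb10, an interferon-inducible beta subunit, had 19.6 CPM per kb, against 0.334 for Psmb9, another inducible beta subunit. Psmb11, the beta subunit of thymic cortical epithelium, had 0.213, and Psma8, the alpha subunit of the testis, had 0.165. The near-copy Psme2b had 0.345, and Psmc3ip had 1.67. Psma8 (2 to 11 counts per library) and Psme2b (2 to 7 counts per library) did not pass the filter on low counts and were not tested. Reads of Psme2b cannot be separated with certainty from those of Psme2, which it closely resembles.

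**Figure D1:**
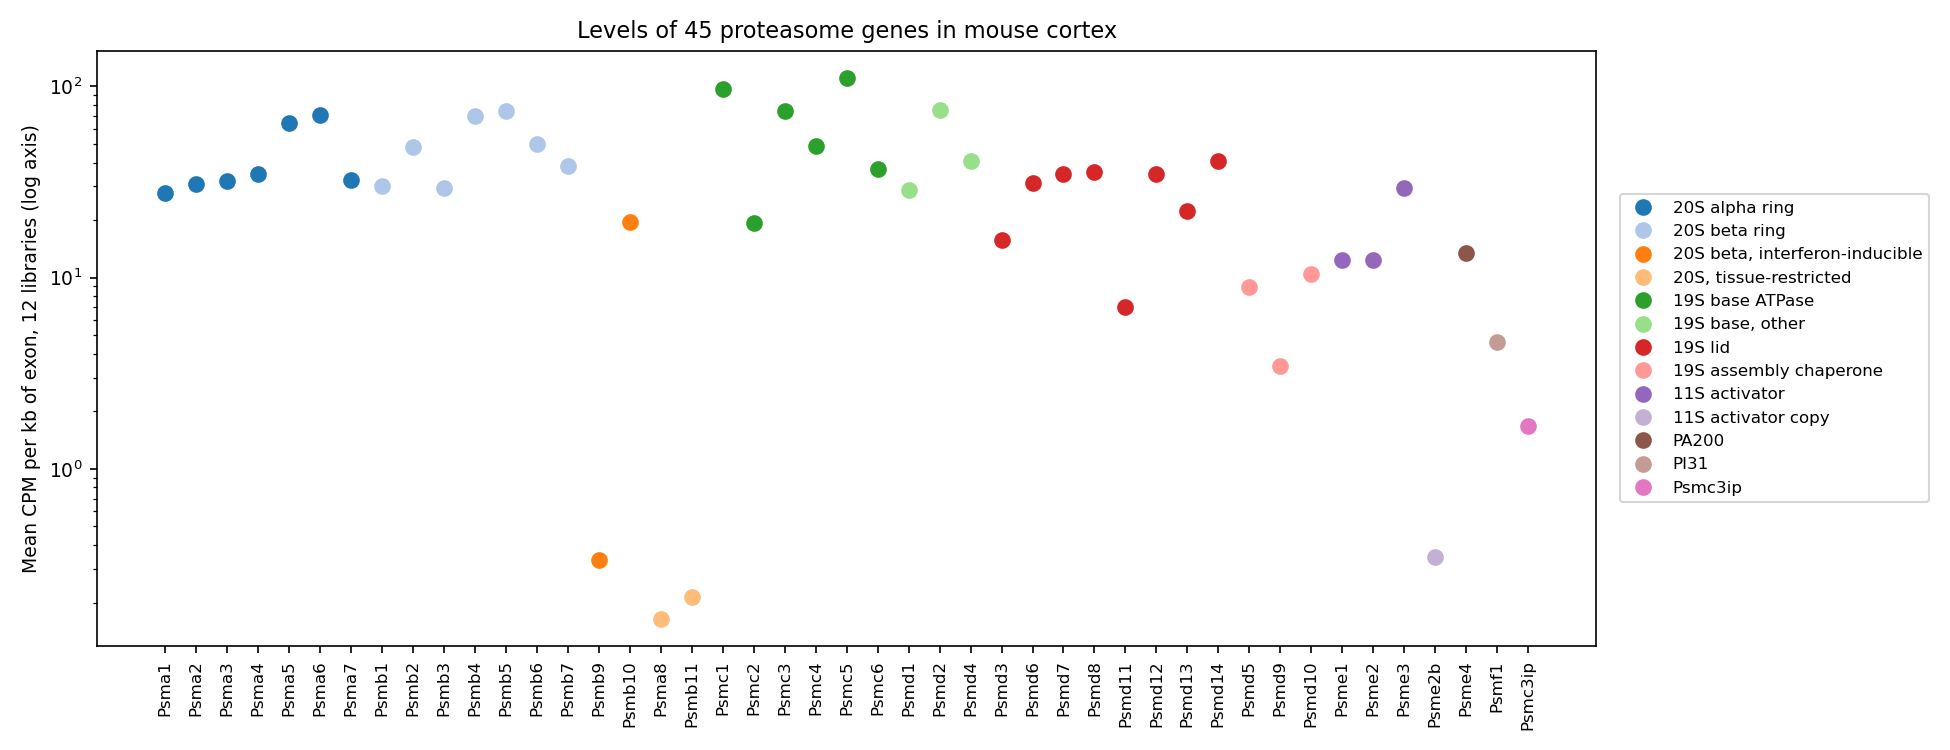
Mean level of each of the 45 genes over 12 libraries, in CPM per kb of exon on a log axis, with 1 point per gene coloured by its place in the complex. The constitutive core genes sit between 27.8 and 74.2, and Psmb9, Psma8, Psmb11 and Psme2b sit below 0.4.

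Promoter windows of 250 bases before to 50 after the start were found for 38 of the 45 genes (41 windows, RefSeq, GRCm38.p6). The antioxidant response element core TGACNNNGC, the kind of site bound by the factors encoded by Nfe2l1 and Nfe2l2, was searched on both strands because Nfe2l1 is known to drive proteasome genes. It was found in 6 of the 41 windows (14.6%), those of 6 genes, and in 4071 of all 32851 windows (12.4%). CCAAT, searched in the same way, was found in 15 of the 41 windows (36.6%) against 37.4% of all windows. The stretches before the start of 5 of the 6 genes are given on the gene's strand, with the match in capitals. Psmb6, Psmc6, Psmd12 and Psmd9 are among the members with the smallest p values in the comparisons, and Psmb5 is a catalytic subunit. A link between the motif and the differences was not tested. The match began 47 bases before the start in Psmb5, 9 in Psmb6, 227 in Psmc6, 247 in Psmd12 and 31 in Psmd9, and in Psme4 it began 7 bases before the start and ran across it, so no stretch is given.
Psmb5, chr14:54618009-54618067, minus strand: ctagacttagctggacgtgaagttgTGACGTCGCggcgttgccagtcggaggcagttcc
Psmb6, chr11:70525323-70525356, plus strand: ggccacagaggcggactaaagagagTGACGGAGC
Psmc6, chr14:45329574-45329630, plus strand, match reversed: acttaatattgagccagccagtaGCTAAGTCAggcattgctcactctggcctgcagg
Psmd12, chr11:107479278-107479314, plus strand, match reversed: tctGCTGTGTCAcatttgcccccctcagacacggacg
Psmd9, chr5:123228134-123228189, plus strand: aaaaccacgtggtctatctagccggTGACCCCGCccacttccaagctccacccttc

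The comparisons ask whether mutant tau, a lower dose of Tia1, or both together went with another level of proteasome transcripts. All 12 libraries were fitted together, p values were adjusted over 15440 genes by the Benjamini-Hochberg method, and genes with an adjusted p under 0.05 were called. The p values measure the spread between these mice. For PS19 against WT, 0 of 43 members and 0% of all genes were called, and the lowest adjusted p of a member was 0.229. For Tia1+/- against WT, 0 of 43 members and 0.712% of all genes were called, with a lowest member value of 0.161. For P301S Tia1+/- against PS19, 0 members and 0.24% of all genes were called (lowest 0.169), and against Tia1+/- 0 members and 0% of all genes (lowest 0.19). The interaction asks whether Tia1 reduction had another effect with the transgene than without it. There, 0 members and 0.00648% of all genes were called, with a lowest adjusted p of 0.0993.

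Unadjusted p values under 0.05 were found for 4 members in PS19 against WT (16.3% of all genes), 1 higher (6.56%) and 3 lower (9.73%). In Tia1+/- against WT there were 6 (19.1%), 1 higher (8.63%) and 5 lower (10.5%). In P301S Tia1+/- against PS19 there were 5 (19.3%), 3 higher (11.7%) and 2 lower (7.62%), and against Tia1+/- 2 (15.6%), both higher (8.92%) and 0 lower (6.66%). The interaction had 5 (22.9%), all above 0 (13.6%; 9.28% of genes were below). DESeq2's Wald test, run as another method, called 0 members in each comparison of 2 groups, where it called 2.88%, 6.33%, 5.45% and 2.62% of all genes in the same order, and 2 members for the interaction, Psmd8 and Psme4, beside 8.06% of all genes. In each comparison of groups the 95% interval of 38 of the 43 members lay within a 1.5-fold change either way, which held for 49.2%, 47.5%, 49.2% and 50.6% of all genes. Psmb9, Psmb11, Psmc3ip and Psme4 were outside in each of them. The fifth was Psmb10 in both comparisons with PS19, Psmc6 in Tia1+/- against WT and Psme2 in P301S Tia1+/- against Tia1+/-. For the interaction 34 members (28.9% of all genes) had an interval within 1.5-fold. The median half-width of a member's interval was 0.217 on the log2 scale in each comparison of groups, and differences well below it were not detectable with this spread.

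The direction of the small differences varied with single libraries. In PS19 against WT, 29 of 43 members were below 0 on the log2 scale, as were 51% of all genes, and the median was -0.029 against -0.007 over all genes. Leaving out 1 library moved this count from 22 (without WT replicate 2 or PS19 replicate 3) to 32 (without WT replicate 1), and the median from -0.061 (without PS19 replicate 1) to -0.006 (without PS19 replicate 3). In Tia1+/- against WT, 33 of 43 were below 0 (49.3% of all genes), with a median of -0.061 against 0.006. This count was 26 without Tia1+/- replicate 3, the library high in striatal genes, and 36 without Tia1+/- replicate 2. In P301S Tia1+/- against PS19, 23 of 43 were below 0 (48.5% of all genes), with a median of -0.01, and without 1 library 17 (P301S Tia1+/- replicate 3) to 29 (P301S Tia1+/- replicate 1). In P301S Tia1+/- against Tia1+/-, 16 of 43 were below 0 (48.9% of all genes), with a median of 0.022. For the interaction 15 of 43 were below 0 (49.5% of all genes). The count for P301S Tia1+/- against Tia1+/- went to 26 of 44 without Tia1+/- replicate 3 and to 12 without P301S Tia1+/- replicate 3, so single libraries turned it. Offsets for GC content and gene length moved the counts for P301S Tia1+/- against PS19 and against Tia1+/- to 35 and 25 members below 0, where they moved the median over all genes to -0.066 and -0.042.

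**Figure D2:**
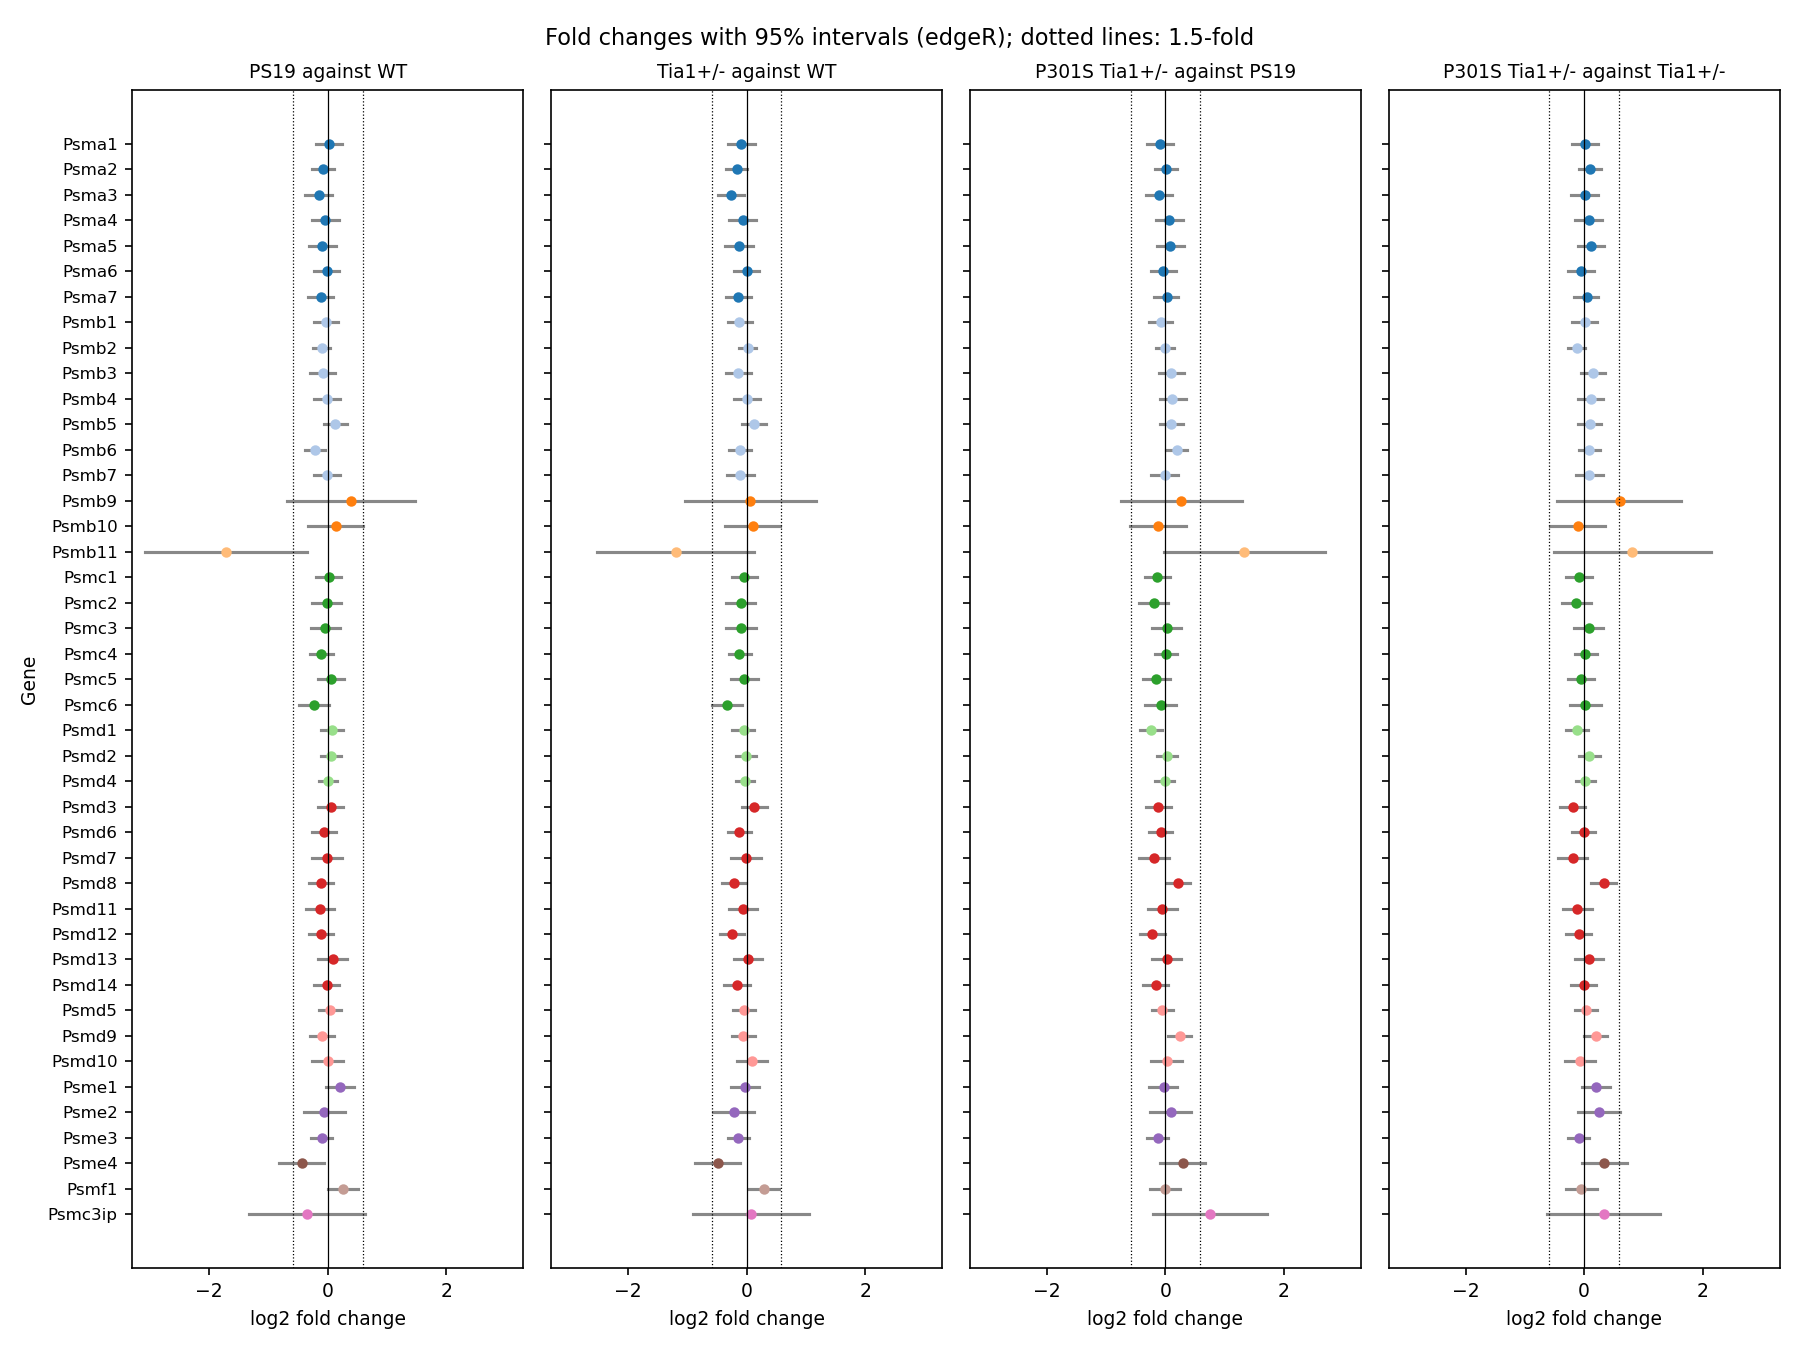
Log2 fold change of each of the 43 tested genes in the 4 comparisons of groups (points, coloured by place in the complex) with its 95% interval (bars) from edgeR, where the dotted lines mark a 1.5-fold change. The intervals of 38 genes per comparison lie within those lines, and Psmb11, Psmb9 and Psmc3ip have the widest.

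The 7 constitutive alpha subunits form the outer rings of the core. Below 0 lay 6 of them in PS19 against WT (median -0.081), 7 in Tia1+/- against WT (median -0.128), 3 in P301S Tia1+/- against PS19 and 1 in P301S Tia1+/- against Tia1+/-, and 0 of 7 were called. The median for PS19 against WT was -0.095 without PS19 replicate 1 and -0.035 without PS19 replicate 3, and that for Tia1+/- against WT was -0.211 without Tia1+/- replicate 2 and -0.05 without Tia1+/- replicate 3. Psma3 had 144, 143 and 131 CPM in WT, 133, 114 and 129 in PS19, 117, 124 and 108 in Tia1+/- and 133, 114 and 104 in P301S Tia1+/- libraries. The Tia1+/- values were lower than the WT values without overlap, by -0.26 on the log2 scale (SE 0.102, edgeR adjusted p = 0.196). Psma2 had 114, 124 and 120 CPM in WT and 104, 115 and 99.2 in Tia1+/- libraries, which overlapped (log2 difference -0.17, edgeR adjusted p = 0.299). In PS19 it had 116, 110 and 112, and in P301S Tia1+/- 124, 111 and 106. The remaining 5 alpha genes differed by -0.14 to 0.12 on the log2 scale in the comparisons of groups, and Psma7 was lower in the 3 PS19 (93.7 to 101 CPM) than in the 3 WT libraries (102 to 109 CPM).

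Of the 7 constitutive beta subunits, 6 lay below 0 in PS19 against WT, 4 in Tia1+/- against WT, 3 in P301S Tia1+/- against PS19 and 1 in P301S Tia1+/- against Tia1+/-, and 0 were called. The subunits with a protease site are Psmb5, Psmb6 and Psmb7. Psmb6, with the caspase-like site, had 103, 100 and 94.7 CPM in WT and 90.3, 98 and 88.1 in Tia1+/- libraries, against 100, 99.4 and 94 in P301S Tia1+/- and 92.6, 78.2 and 86.2 in PS19 libraries. All PS19 libraries were below all WT libraries (log2 difference -0.21, SE 0.0807, edgeR adjusted p = 0.24) and below all P301S Tia1+/- libraries (0.19, SE 0.0805, edgeR adjusted p = 0.231). Its interaction was 0.30 (SE 0.114, edgeR adjusted p = 0.157). The log2 difference between Tia1 genotypes was -0.11 without and 0.19 with the transgene.

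Psmb5 lay above 0 in both comparisons with WT, where Psmb6 lay below 0. In both comparisons of the P301S Tia1+/- group Psmb5 and Psmb6 lay above 0. Psmb5 had 57.4, 59.8 and 66.7 CPM in WT and 66.7, 70.8 and 62.6 in PS19 libraries. In Tia1+/- libraries it had 64.3, 73.4 and 63.2, and in P301S Tia1+/- libraries 71.3, 74.5 and 69.4. It overlapped between the groups of each comparison, with log2 differences of 0.12 and 0.13 against WT and edgeR adjusted p values of 0.511 and 0.461. Psmb7, with the trypsin-like site, had 129, 144 and 133 CPM in WT and 126, 140 and 111 in Tia1+/- libraries, against 147, 132 and 119 in P301S Tia1+/- and 138, 132 and 132 in PS19 libraries. Its groups overlapped throughout, and its log2 differences ran from -0.11 to 0.08.

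Psmb2, a structural beta subunit, varied least, with a within-group SD of 0.0471 on the log2 scale. It had 60, 57.3 and 61.9 CPM in WT, 57.3, 53.6 and 56.1 in PS19, 59.6, 62.2 and 59.7 in Tia1+/- and 57.6, 54.5 and 54.7 in P301S Tia1+/- libraries. The P301S Tia1+/- libraries were below the Tia1+/- libraries without overlap, by -0.12 (SE 0.066, edgeR adjusted p = 0.391), while the PS19 and WT libraries touched at 57.3 CPM. Psmb3, its neighbour in the ring, had 71.6, 66.7 and 72.3 CPM in WT and 61.8, 70 and 59 in Tia1+/- libraries, against 76.2, 70.5 and 65.6 in P301S Tia1+/- and 72.5, 61.2 and 64.2 in PS19 libraries, with overlap in each comparison. Psmb1 and Psmb4 differed by -0.12 to 0.12 on the log2 scale in the comparisons of groups.

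The interferon-inducible subunits replace constitutive ones in the immunoproteasome, a form that favours peptides for antigen presentation. Psmb10 had 23.1, 33.2 and 39.8 CPM in WT, 37.4, 30.7 and 36.9 in PS19, 41.3, 37.6 and 24.4 in Tia1+/- and 30.4, 34.7 and 30.8 in P301S Tia1+/- libraries. The groups overlapped, and the log2 differences of -0.13 to 0.13 had SEs of 0.213 to 0.214. The lowest values came from WT replicate 1 and Tia1+/- replicate 3, the libraries highest in bulb and striatal genes. With the mean level of the bulb genes as a covariate, Psmb10 was the single member called in each comparison, with log2 differences of -0.54 in PS19 against WT (edgeR adjusted p = 0.031; 3.79% of all genes called), -0.42 in Tia1+/- against WT (0.0355; 7.44%), 0.92 in P301S Tia1+/- against PS19 (0.0131; 4.95%) and 0.80 against Tia1+/- (0.0105; 5.85%), and an interaction of 1.34 (0.00805; 6.31%). The P301S Tia1+/- libraries were all high and the PS19 libraries all low in these genes, so the group and the covariate largely overlap in this fit. Psmb9 had between 0.38 and 2.02 CPM, from 5 to 35 counts, with 0.994 ± 0.758 in WT, 1.29 ± 0.464 in PS19, 1.04 ± 0.186 in Tia1+/- and 1.57 ± 0.419 in P301S Tia1+/- cortex (SD, n = 3), and the groups overlapped.

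Psmb11 was tested on few counts, from 4 to 43 per library. It had 3.44, 0.93 and 0.532 CPM in WT and 0.828, 0.723 and 0.58 in Tia1+/- libraries, against 0.818, 1.32 and 1.61 in P301S Tia1+/- and 0.468, 0.32 and 0.662 in PS19 libraries. WT replicate 1 was far above the other 11 libraries, and the P301S Tia1+/- libraries were above the PS19 libraries without overlap. The log2 difference was -1.72 in PS19 against WT (SE 0.624, edgeR adjusted p = 0.229; -0.55 without WT replicate 1) and 1.33 in P301S Tia1+/- against PS19 (SE 0.622, edgeR adjusted p = 0.27). In a fit of the 6 libraries of the latter comparison alone the adjusted p was 0.0452, where 20.1% of all genes and 3 members were called, against 0 members in the 6-library fits of PS19 against WT (0% of genes), Tia1+/- against WT (0.0408%) and P301S Tia1+/- against Tia1+/- (2.22%). Its interaction was 2.53 (SE 0.867, edgeR adjusted p = 0.13). It was 2.92 with an adjusted p of 0.0459 without WT replicate 3, where 6.59% of all genes were called, 1.35 without WT replicate 1, and -0.43 with the bulb covariate (edgeR adjusted p = 0.9). The 3 highest values of Psmb11 came from WT replicate 1 and P301S Tia1+/- replicates 2 and 3, which were among the 4 libraries with the highest bulb gene sums, and the part of that tissue in the differences was not tested. Psmb11 is annotated on chromosome 14 at 54621433 to 54629556 (GRCm38, GENCODE), next to Psmb5 at 54614119 to 54618022 on the other strand.

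**Figure D3:**
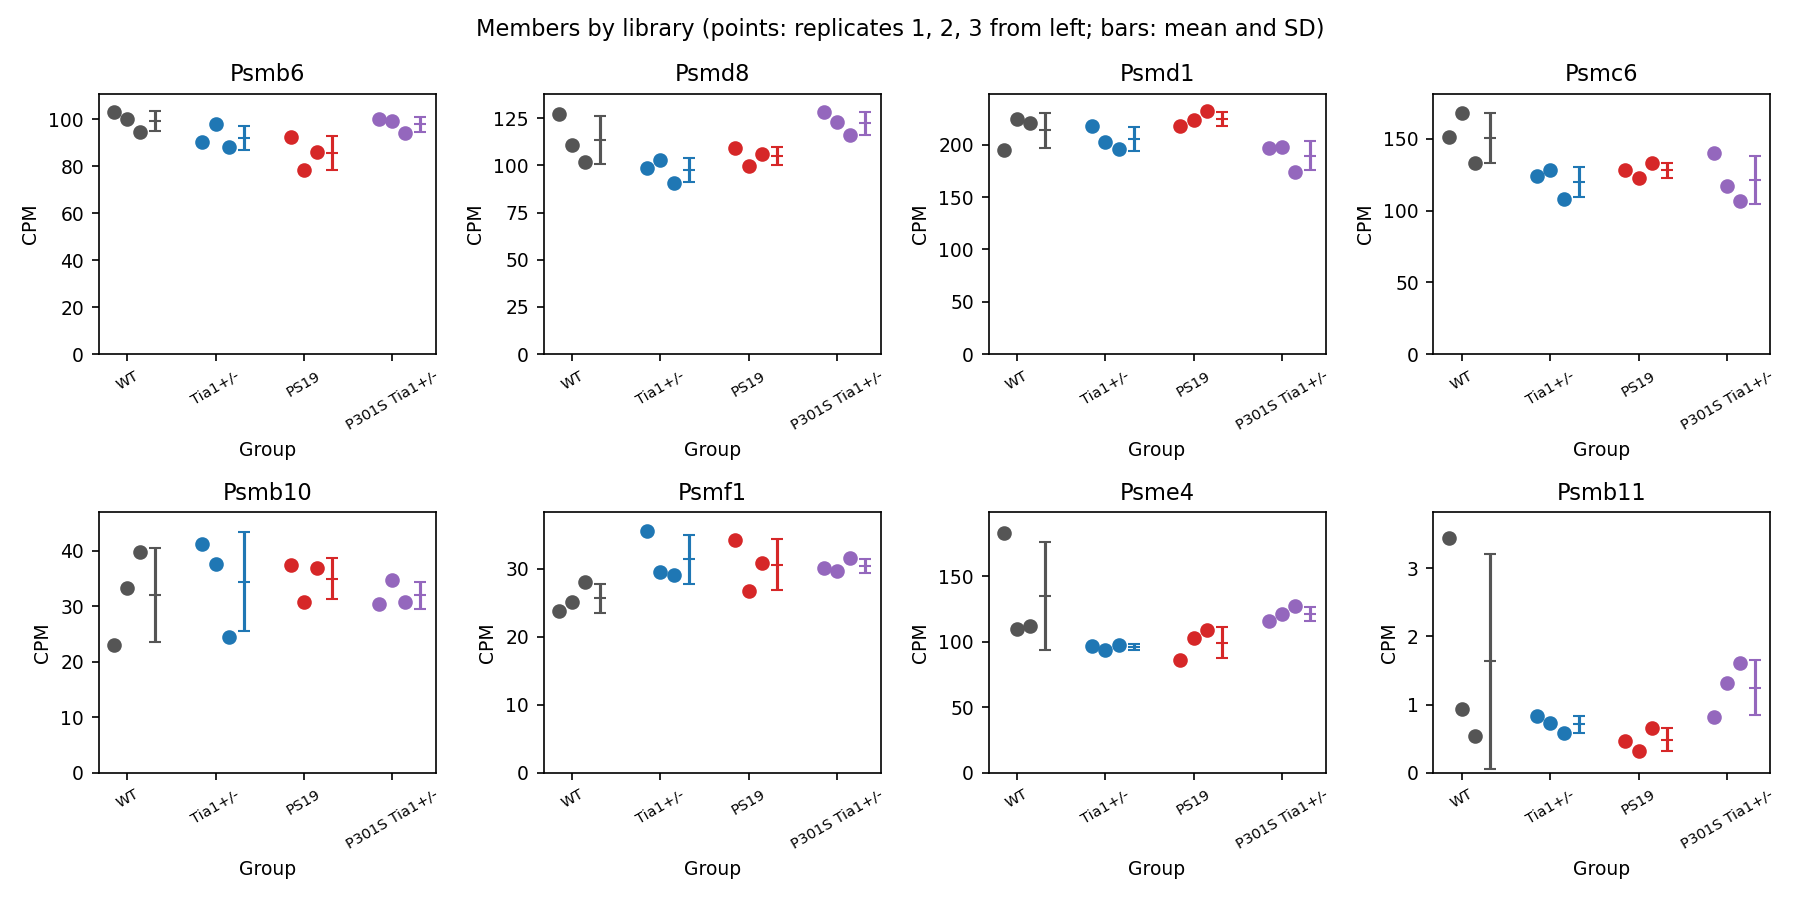
Level in CPM of 8 genes in each library (points, replicates 1, 2 and 3 from the left) with the mean and SD of each group of 3 (bars), on axes that start at 0. Group means run from 85.7 to 99.4 CPM for Psmb6, 97.7 to 122 for Psmd8, 190 to 225 for Psmd1 and 120 to 151 for Psmc6. Psme4 (183 CPM) and Psmb11 (3.44 CPM) have a single high WT library.

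The 6 ATPases form the base ring of the 19S particle. Below 0 lay 4 of them in PS19 against WT, 6 in Tia1+/- against WT (median -0.093), 4 in P301S Tia1+/- against PS19 (median -0.108) and 3 in P301S Tia1+/- against Tia1+/-, and 0 were called. The median for Tia1+/- against WT was -0.138 without Tia1+/- replicate 1 and 0.002 without Tia1+/- replicate 3, and that for P301S Tia1+/- against PS19 was -0.194 without P301S Tia1+/- replicate 1 and -0.038 without P301S Tia1+/- replicate 3. Psmc6 had 151, 168 and 133 CPM in WT, 128, 123 and 133 in PS19, 124, 128 and 108 in Tia1+/- and 140, 117 and 107 in P301S Tia1+/- libraries. The Tia1+/- libraries were below the WT libraries without overlap (log2 difference -0.33, SE 0.117, edgeR adjusted p = 0.163), and the PS19 libraries met the WT range at 133 CPM (-0.23, edgeR adjusted p = 0.344). Psmc2 had 88.3, 113 and 109 CPM in WT and 104, 96.7 and 89 in Tia1+/- libraries, against 95.6, 88.5 and 81.6 in P301S Tia1+/- and 94.4, 111 and 100 in PS19 libraries. The P301S Tia1+/- libraries overlapped with PS19 (log2 difference -0.20, edgeR adjusted p = 0.346). Psmc5, the most abundant member per kb, was lower in P301S Tia1+/- (133 to 157 CPM) than in PS19 (157 to 166 CPM) by -0.15 (edgeR adjusted p = 0.429).

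The base also holds the scaffold subunits Psmd1 and Psmd2 and the ubiquitin receptor Psmd4. Psmd1 had 195, 225 and 221 CPM in WT, 218, 224 and 232 in PS19, 218, 203 and 196 in Tia1+/- and 197, 198 and 174 in P301S Tia1+/- libraries. The P301S Tia1+/- libraries were below the PS19 libraries without overlap, by -0.25 (SE 0.0844), which was the smallest p of a member in that comparison (edgeR adjusted p = 0.169). The fit of these 6 libraries alone gave the same difference with an adjusted p of 0.0436, beside 20.1% of all genes called. Leaving out WT replicate 1 and Tia1+/- replicate 3 together, a choice made after the data were seen, gave -0.27 (edgeR adjusted p = 0.0161; 22.9% of all genes called). With the bulb covariate it was -0.04 (edgeR adjusted p = 0.884). Psmd2 and Psmd4 differed by -0.03 to 0.09 on the log2 scale in the comparisons of groups, and their log2 SDs within groups, 0.0749 and 0.0623, were the lowest after that of Psmb2.

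The lid removes ubiquitin from the substrate and is held here by 8 genes, of which 0 were called. Below 0 lay 6 of them in PS19 against WT, 6 in Tia1+/- against WT, 6 in P301S Tia1+/- against PS19 and 6 in P301S Tia1+/- against Tia1+/-. Psmd8, a structural subunit of the lid, and Psmd13 were above 0 in both comparisons of the P301S Tia1+/- group. Psmd8 had 127, 111 and 102 CPM in WT and 98.8, 103 and 90.8 in Tia1+/- libraries, against 128, 123 and 116 in P301S Tia1+/- and 109, 99.7 and 106 in PS19 libraries. The P301S Tia1+/- libraries were above the Tia1+/- libraries (log2 difference 0.33, SE 0.0916, edgeR adjusted p = 0.19) and the PS19 libraries (0.22, SE 0.0915, edgeR adjusted p = 0.224) without overlap, while the WT libraries overlapped with both. Without WT replicate 1 the first difference was 0.32 with an adjusted p of 0.0324, where 6.11% of all genes were called. Psmd8 had the smallest p of a member for the interaction, 0.44 on the log2 scale (SE 0.13, edgeR adjusted p = 0.0993, DESeq2 adjusted p = 0.037). Under the alternatives described below, its difference ran from 0.25 to 0.36 against Tia1+/- and from 0.1 to 0.26 against PS19. The interaction ran from 0.28 to 0.47. WT replicate 1 and the P301S Tia1+/- libraries had the highest Psmd8 and also the highest bulb gene levels. The part of that tissue in the Psmd8 values was not tested.

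Psmd12, Psmd7 and Psmd3 are structural subunits of the lid. Psmd12 had 95.9, 113 and 103 CPM in WT, 98.9, 90.6 and 98.5 in PS19, 90.5, 91.6 and 80.9 in Tia1+/- and 90.4, 82.3 and 74.2 in P301S Tia1+/- libraries. Without overlap it was lower in Tia1+/- than in WT (-0.25, SE 0.0946, edgeR adjusted p = 0.191) and in P301S Tia1+/- than in PS19 libraries (-0.22, SE 0.0945, edgeR adjusted p = 0.233), and its interaction was 0.02 (95% interval -0.27 to 0.32). With the bulb covariate the second difference was 0 (edgeR adjusted p = 0.997). Psmd7, a partner of the deubiquitinase subunit, had 65.7, 87.5 and 90.7 CPM in WT and 85.6, 81.3 and 75.5 in Tia1+/- libraries, against 71.4, 71 and 69.6 in P301S Tia1+/- and 81.1, 85.1 and 76 in PS19 libraries. Psmd3 had 67.3, 80.9 and 81.3 CPM in WT, 82.2, 76.9 and 78.2 in PS19, 91.5, 82.6 and 76.3 in Tia1+/- and 68.7, 75.8 and 74.4 in P301S Tia1+/- libraries. Both genes were lower in P301S Tia1+/- than in Tia1+/- and PS19 libraries without overlap, with log2 differences of -0.19 and -0.19 for Psmd7 and of -0.19 and -0.12 for Psmd3 (edgeR adjusted p from 0.351 to 0.514), and both had their lowest WT value in replicate 1, the WT library highest in bulb genes. Psmd14, the deubiquitinase itself, had 113, 133 and 120 CPM in WT and 95.8 to 117 in P301S Tia1+/- libraries, and overlapped in each comparison.

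Psmd9, Psmd5 and Psmd10 are chaperones of base assembly. Psmd9 had 25.9, 22.8 and 26.3 CPM in WT and 24.6, 23.2 and 24.4 in Tia1+/- libraries, against 28.6, 26.5 and 27.8 in P301S Tia1+/- and 23.5, 21.5 and 24.9 in PS19 libraries. The P301S Tia1+/- libraries were above those of the other 3 groups, by 0.24 against PS19 (SE 0.0889, edgeR adjusted p = 0.188) and 0.20 against Tia1+/- (SE 0.0889, edgeR adjusted p = 0.318). An antisense gene, Gm26745, overlaps 25.5% of the exon bases of Psmd9, and since the strand setting of the counting is not given in the sources used here, the reads of both genes may not have been told apart. Psmd5 and Psmd10 differed by -0.07 to 0.09 on the log2 scale in the comparisons of groups.

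The 11S activator opens the core without ubiquitin or ATP, with Psme1 and Psme2 in one interferon-inducible ring and Psme3 in a nuclear one. Psme1 had 27.1, 27.7 and 22.6 CPM in WT, 30.6, 31.4 and 27.3 in PS19, 22.8, 25.1 and 27.9 in Tia1+/- and 30.1, 28.6 and 28.6 in P301S Tia1+/- libraries. Its P301S Tia1+/- libraries did not overlap with Tia1+/- (log2 difference 0.20, SE 0.107, edgeR adjusted p = 0.383; 0.11 without Tia1+/- replicate 1 and -0.07 with the bulb covariate), whereas PS19 overlapped with WT (0.21, SE 0.107, edgeR adjusted p = 0.36). Psme2 had 28, 21 and 18.8 CPM in WT and 16.6, 20.1 and 21.5 in Tia1+/- libraries, against 23.1, 22.4 and 23.7 in P301S Tia1+/- and 24.4, 22 and 18.5 in PS19 libraries, and the P301S Tia1+/- libraries lay above Tia1+/- without overlap, with a log2 difference of 0.25 (SE 0.159, edgeR adjusted p = 0.466). Psme3 had 90.8, 95.2 and 96.1 CPM in WT, 84.4, 88.3 and 90.5 in PS19, 94, 83.4 and 78.7 in Tia1+/- and 77.7, 84.6 and 78 in P301S Tia1+/- libraries. Its PS19 libraries were all below its WT libraries by a narrow margin (-0.10, SE 0.0796, edgeR adjusted p = 0.547). Microglia, a source of interferon-inducible subunits in the brain, had marker sums of 245 to 273 CPM in WT, 267 to 385 in Tia1+/-, 300 to 528 in PS19 and 296 to 324 in P301S Tia1+/- libraries for 8 genes, and their part in the Psme1 values was not tested.

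Psme4 encodes PA200, a large nuclear cap of the core. It had 183, 110 and 112 CPM in WT and 97.1, 93.5 and 97.4 in Tia1+/- libraries, against 116, 121 and 127 in P301S Tia1+/- and 86, 103 and 109 in PS19 libraries. WT replicate 1 was far above the rest, the other 2 WT libraries lay just above the PS19 and Tia1+/- ranges, and the P301S Tia1+/- libraries were above PS19 and Tia1+/- without overlap. The log2 differences were -0.49 in Tia1+/- against WT (SE 0.174, edgeR adjusted p = 0.161), -0.44 in PS19 against WT (SE 0.173, edgeR adjusted p = 0.255), 0.29 in P301S Tia1+/- against PS19 (edgeR adjusted p = 0.374) and 0.34 against Tia1+/- (edgeR adjusted p = 0.365). Without WT replicate 1 the first pair of differences was -0.19 and -0.15. The interaction was 0.78 (SE 0.245, edgeR adjusted p = 0.11, DESeq2 adjusted p = 0.0491). Without WT replicate 1 and Tia1+/- replicate 3 it was 0.49 with an adjusted p of 0.0307, beside 13.5% of all genes called, and P301S Tia1+/- against Tia1+/- gave 0.33 with an adjusted p of 0.0495 without WT replicate 1 alone (6.11% of all genes called). With the bulb covariate the interaction of Psme4 turned to -0.09 (edgeR adjusted p = 0.916). The 4 libraries with the highest Psme4 were those with the highest bulb gene levels, and the part of that tissue in the values was not tested.

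**Figure D4:**
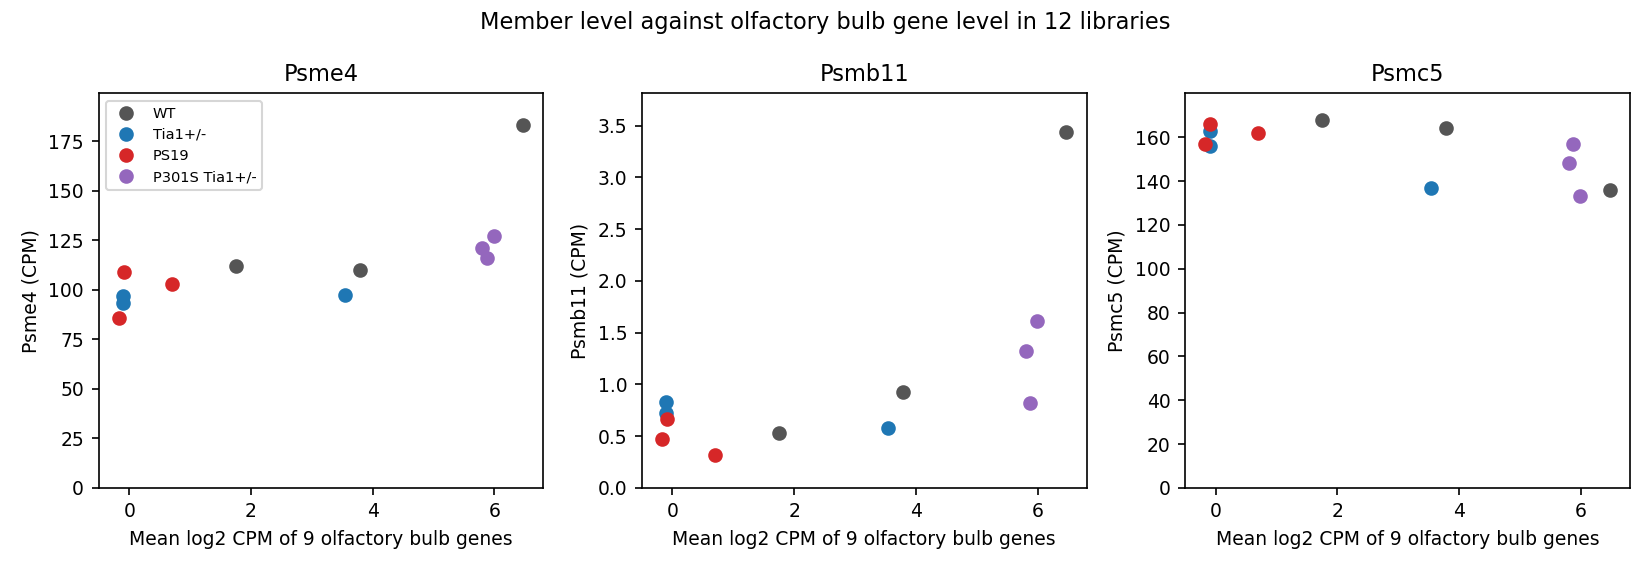
Level of Psme4, Psmb11 and Psmc5 in CPM against the mean log2 CPM of 9 olfactory bulb genes, with 1 point per library coloured by group. The 3 P301S Tia1+/- libraries (5.80 to 5.99) and WT replicate 1 (6.47) lie at the right, where Psme4 is highest, and the PS19 libraries lie between -0.17 and 0.70.

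Psmf1 encodes PI31, which inhibits the core in the test tube and has been tied to proteasome transport in axons. It had 23.8, 25.2 and 28 CPM in WT, 34.3, 26.8 and 30.8 in PS19, 35.6, 29.6 and 29.1 in Tia1+/- and 30.1, 29.7 and 31.6 in P301S Tia1+/- libraries. The Tia1+/- libraries were above the WT libraries without overlap (log2 difference 0.29, SE 0.115, edgeR adjusted p = 0.199), and 2 of the 3 PS19 libraries were as well (0.26, SE 0.115, edgeR adjusted p = 0.299). Psmc3ip, which is no subunit, had 1.44 to 5 CPM from 17 to 84 counts and a group mean of 2.92 ± 1.72 in WT, 2.28 ± 0.73 in PS19, 3.07 ± 1.26 in Tia1+/- and 3.86 ± 1.07 in P301S Tia1+/- cortex (SD, n = 3). Its groups overlapped in each comparison, and Mlx overlaps 21.2% of its exon bases on the other strand.

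Counting members whose 3 libraries of a group all lay on one side of the other group gave 4 in PS19 against WT, all lower (20.8% of all genes in either direction, 9.75% higher and 11% lower). There were 6 in Tia1+/- against WT (20%), 1 higher (9.6%) and 5 lower (10.4%). In P301S Tia1+/- against PS19 there were 10 (38.5%), 5 higher (20.2%) and 5 lower (18.2%), and against Tia1+/- 8 (26%), 5 higher (14.9%) and 3 lower (11.1%). As shares of the 43 members these were 9.3%, 14%, 23.3% and 18.6%, each below the share over all genes. Without Tia1+/- replicate 2 the share in Tia1+/- against WT was 36.4%, or 16 of 44 members, above the 25.8% over all genes. The members also varied little within groups. Their median within-group SD on the log2 scale was 0.116, against 0.21 over all 15440 genes, and 0.114 for the 40 members against 0.156 for 10217 genes at 10 CPM or more.

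Averages over a class also differed between libraries of 1 group. Relative to the mean over 12 libraries, the 14 core subunits averaged -0.144 on the log2 scale in Tia1+/- replicate 3 and 0.122 in P301S Tia1+/- replicate 1, and the 17 subunits of the 19S particle ranged from -0.154 in Tia1+/- replicate 3 to 0.135 in WT replicate 2. Within P301S Tia1+/-, replicates 1 and 3 differed from 0.122 to -0.098 in the core and from 0.011 to -0.126 in the 19S particle. The groups overlapped in both averages. Tia1+/- replicate 3 also had the lowest summed neuron markers, 5510 CPM for 8 genes against 6230 to 8150 elsewhere. These genes did not move together in that library. Snap25 (1820 CPM), Syt1 (1370) and Slc17a7 (298) were at their lowest there, Gad2 (610) was at its highest, and the rest were at neither end. The part of neuron number or type in the shift was not tested. The 11S subunits were lowest in Tia1+/- replicate 1, with -0.17, and highest in WT replicate 1, with 0.147. The 3 Tia1+/- libraries (-0.17 to -0.036) lay below the 3 P301S Tia1+/- libraries (0.018 to 0.031). That average holds 3 genes, of which 0 were called, with log2 differences of 0.20 for Psme1, 0.25 for Psme2 and -0.09 for Psme3. Their median was 0.202, and it ran from -0.069 to 0.275 under the alternatives described below.

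**Figure D5:**
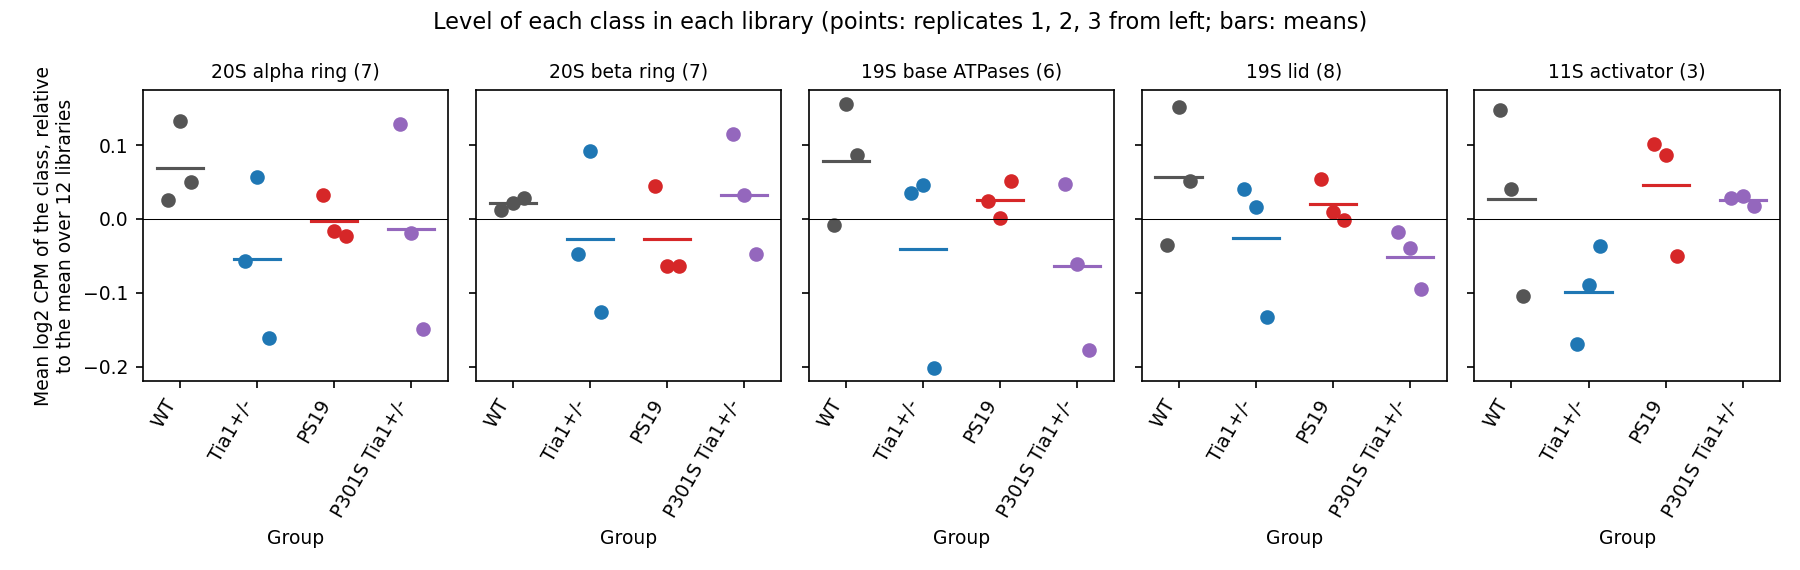
Mean log2 CPM of 5 classes of subunits in each library, relative to the mean over 12 libraries (points, replicates 1, 2 and 3 from the left; bars, group means; the number of genes in brackets). Tia1+/- replicate 3 is the lowest library in both core rings, the ATPases and the lid, at -0.126 to -0.202.

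Of 41 tested genes that act with the proteasome (assembly factors, subunits outside the symbol rule, deubiquitinases, ubiquitin shuttles, the Vcp segregase, ubiquitin genes, transcription factors and interferon-gamma response genes), 0 were called by edgeR in any of the 5 comparisons, and 6, 6, 5, 3 and 7 had an unadjusted p under 0.05 in the same order of comparisons (16.3%, 19.1%, 19.3%, 15.6% and 22.9% of all genes). DESeq2 called 0, 3, 0, 1 and 2 (2.88%, 6.33%, 5.45%, 2.62% and 8.06% of all genes). The other alternatives described below, such as leaving out a library or the bulb covariate, were not examined for these genes. Uba6, an alternative ubiquitin-activating enzyme, came closest, with 72.2, 86.4 and 74.4 CPM in WT and 57.1, 48.7 and 56.3 in Tia1+/- libraries, against 58.6, 53.4 and 51 in P301S Tia1+/- and 58, 61.2 and 73.1 in PS19 libraries. The Tia1+/- libraries were below the WT libraries without overlap (log2 difference -0.52, SE 0.112, edgeR adjusted p = 0.0587, DESeq2 adjusted p = 0.00331). Ubqln2, a shuttle that carries ubiquitinated proteins to the 19S particle, had 47.7, 63.4 and 56.8 CPM in WT, 54.6, 73.2 and 72.9 in PS19, 89.6, 73 and 73.5 in Tia1+/- and 47.8, 59.6 and 54.7 in P301S Tia1+/- libraries. DESeq2 also called it in Tia1+/- against WT (edgeR log2 difference 0.49, DESeq2 adjusted p = 0.0469) and in P301S Tia1+/- against Tia1+/- (-0.54, 0.0356). Its interaction was -0.8 (SE 0.209, edgeR adjusted p = 0.0798, DESeq2 adjusted p = 0.0137). Ufd1l, a cofactor of Vcp, had an interaction of -0.35 (SE 0.0946, edgeR adjusted p = 0.0846, DESeq2 adjusted p = 0.00938). Nfe2l1, the factor known to raise proteasome genes when the protease is blocked, had 285 ± 66.6 CPM in WT, 327 ± 22.1 in PS19, 334 ± 28 in Tia1+/- and 290 ± 7.65 in P301S Tia1+/- cortex (SD, n = 3), with edgeR adjusted p values from 0.263 to 0.522.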

How the data were processed

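Cortex RNA of 12 mice was sequenced, and the authors aligned the reads to mm10 (TopHat2 2.0.6 in the submitters' notes) and used featureCounts for counting. The deposited values are raw counts per gene symbol, and the strand setting and annotation are not given in the sources used here. Libraries were grouped by title. Here, counts were scaled by TMM, filtered with filterByExpr and tested with the quasi-likelihood test of edgeR 4.0.16 (R 4.3.3) in 1 fit of all 12 libraries with a mean per group. Standard errors are the log2 fold change divided by the square root of F. DESeq2 1.42.0 was an alternative. CPM use TMM library sizes, and log2 levels of single libraries a prior count of 2. Positions and exon lengths come from GENCODE M21 (GRCm38), matched by current symbol for 22750 symbols and by older symbol for 907.

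The code was tested on simulated counts. No columns held identical values. An exact permutation test of 3 against 3 libraries cannot give a p below 0.1, so none was used. With the replicate numbers as pairs, 7 of 18 same-numbered pairs had residual correlations above 0.1 (range -0.538 to 0.346), so the numbers were not taken as pairs. For Tia1+/- with P301S Tia1+/- the 3 values were 0.123, 0.134 and 0.24, and a blocked fit of these 6 libraries was added. Members and gene lists were chosen with earlier results of these data known. Members named with values were the 8 with the smallest p in each comparison of groups, the catalytic and inducible subunits, Psme3, Psme4, Psmf1 and Psmc3ip. Psma7, Psmc5, Psmd14 and the partner genes were chosen after their values were seen, and the class of Psme2b was set then too. Planned protein comparisons were not run here.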

Additional observations from a re-analysis of the deposited data

How the results depend on the processing

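Results were recomputed under up to 23 alternatives, 12 of them leaving out 1 library and 2 chosen after the data were seen. The replicate number as a block called 0 members in each comparison, as did the blocked fit of 6 libraries. The member count was 0 without the block too, so it could not fall. Over all genes the block lowered the share called by edgeR. It went from 0.712% to 0.0583% in Tia1+/- against WT and from 0.24% to 0.0453% in P301S Tia1+/- against PS19. In the fit of 6 libraries it went from 2.22% to 0.964%. The count of members called went from 0 to 3 for P301S Tia1+/- against PS19 in the fit of its 6 libraries (Psmd1, Psmb11, Psmd8), where 20.1% of all genes were called. It went to 2 for the interaction with DESeq2 (8.06% of all genes). With the bulb covariate it was 1 (Psmb10) in each of the 5 comparisons, where 3.79% to 7.44% of all genes were called. Without WT replicate 1 and Tia1+/- replicate 3 together the counts were 5 (Psmb11, Psmd1, Psmd12, Psmd7, Psme4; 22.9% of all genes) against PS19, 4 (Psmd3, Psmd7, Psmd8, Psme4; 23.4%) against Tia1+/- and 1 (Psme4; 13.5%) for the interaction. Leaving out 1 library gave 0 to 2 for P301S Tia1+/- against Tia1+/- (2 without WT replicate 1; 6.11% of all genes), 0 to 1 for the interaction (Psmb11, without WT replicate 3; 6.59%) and 0 for the rest. The causes were not tested. Leaving out 1 library gave 4 to 12 members without overlap in PS19 against WT (20.5% to 37.3% of all genes), 6 to 16 in Tia1+/- against WT (19.9% to 38.7%), 8 to 18 in P301S Tia1+/- against PS19 (38.1% to 49.9%) and 8 to 13 against Tia1+/- (25.8% to 54.4%). With the bulb covariate the medians over all members, the core and the 19S particle were -0.136, -0.154 and -0.167 in PS19 against WT, -0.155, -0.2 and -0.168 in Tia1+/- against WT, 0.148, 0.168 and 0.163 in P301S Tia1+/- against PS19, 0.133, 0.166 and 0.133 against Tia1+/-, and 0.288, 0.306 and 0.331 for the interaction, where 11, 8 and 8 members lay below 0 in the last 3 comparisons and 3 intervals stayed within 1.5-fold for the interaction. It reversed Psmd12 (0), Psmb11 (-0.46), Psmc2 (0.1) and Psmc3ip (-0.58) against PS19, Psmd3 (0.08), Psme4 (-0.13), Psme1 (-0.07) and Psmd7 (0.13) against Tia1+/-, and Psme4 (-0.09) and Psmb11 (-0.43) for the interaction. GC and length offsets moved the median over all members to -0.092 in P301S Tia1+/- against PS19 and -0.031 for the interaction, and the core median of the interaction to 0.005, with 35, 25 and 26 members below 0 in P301S Tia1+/- against PS19, against Tia1+/- and for the interaction; with the replicate block the values were -0.097, -0.032 and 0.005, with 35, 25 and 26 below 0. Without both libraries the core median was -0.007 in P301S Tia1+/- against Tia1+/- and 0.032 for the interaction, 26 members lay below 0 in the former, and Psmb11 reversed to 0.09 in Tia1+/- against WT. Leaving out 1 library gave medians over all members of -0.028 to 0.085 for P301S Tia1+/- against Tia1+/-, with 12 to 26 members below 0, and 14 to 24 below 0 for the interaction. DESeq2 size factors, no filter and a minimum of 10 counts per library changed no count of members called. The count without overlap was not recomputed for the DESeq2 test, the fits of 6 libraries, the block, the covariate and the 2 libraries left out together.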
